A study of Mus musculus with 2 samples.

Results

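Lipogenesis and cholesterol synthesis genes were examined in primary hepatic stromal cells, as 38 listed genes of fatty acid synthesis, elongation and desaturation, sterol synthesis, triglyceride synthesis and their regulators. Members were found by gene symbol in GENCODE M21, the annotation of GRCm38, among the 38320 gene entries of each library. Of the 38 genes, 37 were analysed and Mvd was not analysed here. The fatty acid arm held 13 genes, the sterol arm 14 of 15, the regulators 6 and triglyceride synthesis 4.

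Both groups were adult male C57/Bl6 mice that carried floxed Foxf1 alleles and had received carbon tetrachloride (CCl4), a hepatotoxin, for 5 weeks. The control group was Foxf1 fl/fl. The knockout group also carried the tamoxifen-inducible αSMACreER transgene, in which the smooth muscle actin promoter drives Cre. This group is written αSMACreER;Foxf1-/- as in the study, although the deletion is limited to cells that have used this promoter. In the study, tamoxifen was injected during the CCl4 course to activate the deletion. Adherent liver cells were collected after differential plating and samples were pooled, so there was 1 library per genotype, the spread between mice is unknown and no test between genotypes was made. In bulk RNA, fewer cells of a type and less RNA per cell cannot be told apart. Foxf1 itself, the check of the deletion, was not analysed here.

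Fatty acid synthesis starts from cytosolic acetyl-CoA, which acetyl-CoA carboxylase turns into malonyl-CoA for fatty acid synthase, and elongases and desaturases then lengthen the chains and add double bonds. Cholesterol synthesis starts from the same acetyl-CoA, passes through mevalonate and farnesyl diphosphate to squalene, and ends with the trimming of lanosterol. SREBP transcription factors induce the genes of both arms, and SCAP carries them out of the endoplasmic reticulum unless INSIG proteins hold the complex back when sterols are plentiful. Hepatocytes are the main lipogenic cells of the liver, whereas quiescent hepatic stellate cells (HSCs) store retinyl esters in lipid droplets.

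Values are FPKM, fragment numbers scaled to transcript length and to the size of the library, and are given as deposited, first for Foxf1 fl/fl and then for αSMACreER;Foxf1-/-. Fold changes are differences of log2(FPKM + 0.1), αSMACreER;Foxf1-/- minus Foxf1 fl/fl, after the αSMACreER;Foxf1-/- values were divided by 1.02, the median ratio of 11871 genes, and they understate the change of genes near 0. The intervals are approximate 95% counting intervals of the FPKM ratio, based on read totals estimated from the spacing of low values (about 9838887 for Foxf1 fl/fl and 11356484 for αSMACreER;Foxf1-/-, both rough), and they hold no difference between mice. A gene was counted as higher or lower at 1.5-fold, which is 0.585 on the log2 scale. The study used this fold together with a false discovery rate, which is not applied here. With a mean FPKM of at least 1, 35 of the 37 members passed the filter on low values, along with 12692 genes in all.

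The libraries held RNA of several liver cell types. The study reported Des and Acta2 in its purified cells and no markers of hepatocytes or Kupffer cells. Markers of both cell types were present in these libraries, and the study's own assay of them was not examined here. Of 14 Kupffer cell and macrophage markers, FPKM ranged from 30.0 to 3682 in Foxf1 fl/fl and from 18.1 to 3395 in αSMACreER;Foxf1-/-, against 0.0778 to 127 and 0.111 to 186 for 14 stellate cell and myofibroblast markers, among which Des had 1.70 and 3.29 and Acta2 7.77 and 5.65. The stellate cell gene Lrat was near 0 in both libraries, at 0.0778 and 0.111. The 14 hepatocyte markers summed to an FPKM of 5270 and 2217, all 14 were at least 1.5-fold lower in αSMACreER;Foxf1-/- cells, and their median log2 fold change was −1.45. Of 4 neutrophil markers 3 were lower, with a median of −1.15. Of 5 adipocyte markers, Adipoq and Lep were listed at 0 in both libraries, Plin1 and Cidec were each listed at 0 in 1 of them, and Fabp4, which macrophages and endothelial cells also express, had 415 and 305.

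Of the 35 members, 5 were at least 1.5-fold higher in αSMACreER;Foxf1-/- cells (14.3%, against 12.8% of all genes) and 5 were at least 1.5-fold lower (14.3%, against 13.2% of all genes). Both shares were close to those of all genes. The genes above the threshold were Hsd17b7, Elovl6, Acaca, Srebf1 and Scap, and those below it were Dgat2, Fasn, Pmvk, Me1 and Fdps. Of these, Hsd17b7 had an FPKM under 1 in Foxf1 fl/fl and passed the filter only through its value in αSMACreER;Foxf1-/-. The genes nearest to the threshold were Scap (0.60) and Fdps (−0.60) on its far side, and Idi1 (−0.52) and Scd2 (0.48) on its near side. Over the 35 members the median log2 fold change was −0.0016, against 0.0050 over all genes. Counting intervals lay above no change for 11 members (31.4%, against 30.0% of all genes), below it for 12 (34.3%, against 28.7%) and held it for 12.

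By sign alone, the 2 arms differed in the balance of their members. The fatty acid arm had 8 of its 12 measured genes above 0 and a median of 0.05, with 2 higher and 2 lower by 1.5-fold. The sterol arm had 10 of 14 below 0 and a median of −0.24, with 1 higher and 2 lower. By counting intervals the arms were more alike. In the fatty acid arm 5 intervals lay above no change, 4 below it and 3 held it. In the sterol arm these numbers were 4, 5 and 5. Over all genes 30.0% lay above no change and 28.7% below it. Of all 12692 genes 6392 lay above 0 and 6299 below it, with 12.8% higher and 13.2% lower by 1.5-fold. The difference between the medians of the 2 arms, −0.29 on the log2 scale, has no replicate check. Scaling the libraries to an equal FPKM sum, which moved the median of all genes to 0.20, changed the members to 6 higher and 2 lower, and all genes from 1624 higher and 1678 lower to 2690 and 1130.

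**Figure D1:**
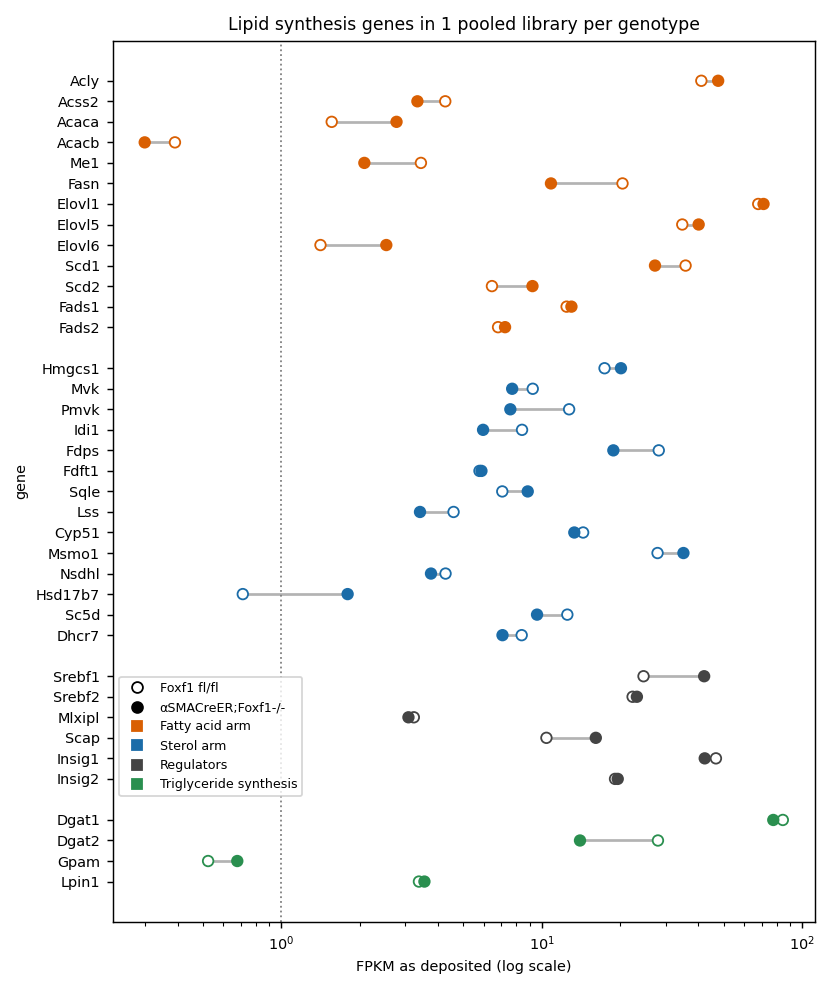
Deposited FPKM (log axis) of the 37 analysed genes in the Foxf1 fl/fl library (open circles) and the αSMACreER;Foxf1-/- library (filled circles), coloured by arm, with a dotted line at an FPKM of 1. Dgat1, Elovl1, Insig1 and Acly are among the highest, Acacb and Gpam lie under 1 in both libraries, and the widest gaps are those of Hsd17b7, Dgat2 and Fasn.

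The genes for the supply of acetyl-CoA, malonyl-CoA and NADPH differed in level and in direction. Acly, the ATP citrate lyase that makes cytosolic acetyl-CoA from citrate, had 41.0 and 47.6, a log2 difference of 0.19 (0.10 to 0.28). Acss2, which makes acetyl-CoA from acetate, had 4.27 and 3.33, a log2 difference of −0.37 (−0.74 to −0.03). Acly was thus the far more abundant of these transcripts in both libraries, and its share of the summed FPKM of the arm was 17.4% and 20.1%.

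Acaca (ENSMUSG00000020532, chr11:84129672-84401651 of GRCm38, plus strand), the cytosolic acetyl-CoA carboxylase that makes malonyl-CoA for chain synthesis, had 1.56 in Foxf1 fl/fl and 2.77 in αSMACreER;Foxf1-/-. It was 1.70-fold higher in αSMACreER;Foxf1-/-, a log2 fold change of 0.76 (0.51 to 1.10), on about 143 and 293 reads. The mitochondrial isoenzyme Acacb, whose malonyl-CoA restrains fatty acid oxidation, had 0.391 and 0.299, under the filter, and its interval (−1.18 to 0.35) held no change. Me1, the malic enzyme that supplies NADPH, had 3.44 and 2.09 and was 1.65-fold lower, a log2 fold change of −0.72 (−1.20 to −0.30).

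Fasn (ENSMUSG00000025153, chr11:120805846-120824547, minus strand), the multifunctional synthase that builds palmitate, had 20.4 in Foxf1 fl/fl and 10.9 in αSMACreER;Foxf1-/-. It was 1.91-fold lower, a log2 fold change of −0.93 (−1.04 to −0.84), on about 1981 and 1215 reads. Among all genes that passed the filter it stood at percentile 69.1 in Foxf1 fl/fl and at 53.5 in αSMACreER;Foxf1-/-. Acaca and Fasn catalyse consecutive steps and differed in opposite directions, so that the ratio of Acaca to Fasn within a library, which no scaling changes, was 0.0765 and 0.255, a 3.34-fold difference between the libraries (log2 difference 1.74, 1.43 to 2.05).

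The elongases differed in level and in change. Elovl1, which extends saturated very long chains, had the highest level of the arm, with 67.8 and 71.1 and an interval (−0.08 to 0.16) that held no change. Elovl5, which extends polyunsaturated chains, had 34.7 and 40.1, a log2 difference of 0.18 (0.06 to 0.31). Elovl6 (chr3:129532355-129638495, plus strand), which extends palmitate to stearate, had a far lower level of 1.42 and 2.53 and was 1.71-fold higher in αSMACreER;Foxf1-/-, a log2 fold change of 0.77 (0.42 to 1.22) on about 80 and 165 reads.

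The Δ9 desaturases, which put the first double bond into stearate and palmitate, differed in direction. Scd1 (chr19:44394455-44407879, minus strand), the main form in liver, had 35.7 and 27.2, a log2 difference of −0.41 (−0.52 to −0.31). Scd2 (chr19:44293674-44306864, plus strand), the form of many other tissues, had 6.44 and 9.22, a log2 difference of 0.48 (0.29 to 0.69). Neither reached 1.5-fold alone. The ratio of Scd1 to Scd2 was 5.54 in Foxf1 fl/fl and 2.95 in αSMACreER;Foxf1-/-, a 1.87-fold lower value (log2 difference −0.91, −1.13 to −0.69). Fads1 and Fads2, the Δ5 and Δ6 desaturases of polyunsaturated fatty acids, had 12.5 and 13.01, and 6.80 and 7.24, with intervals that held no change.

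The first steps of the sterol arm lay mostly below 0. Hmgcs1 (chr13:119690379-119708260, plus strand), the cytosolic HMG-CoA synthase at the entry to the pathway, was the exception, with 17.4 and 20.2, a difference of 0.18 on the log2 scale (0.02 to 0.34). The kinases of mevalonate came next. Mvk had 9.24 and 7.71, with an interval (−0.58 to 0.01) that held no change, and Pmvk (chr3:89454541-89469013, plus strand) had 12.7 and 7.58. Pmvk was 1.70-fold lower in αSMACreER;Foxf1-/-, a log2 fold change of −0.77 (−1.19 to −0.37).

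Idi1, the isopentenyl diphosphate isomerase, had 8.41 and 5.96, a log2 difference of −0.52 (−0.81 to −0.24). Fdps (chr3:89093588-89101959, minus strand), which makes farnesyl diphosphate, had the highest FPKM of the sterol arm in Foxf1 fl/fl, at 28.2. In αSMACreER;Foxf1-/- it had 18.8. It was 1.52-fold lower, a log2 fold change of −0.60 (−0.76 to −0.45). Fdps was no longer past 1.5-fold with FPKM as deposited, without scaling, or with a pseudocount of 1. Over these 5 genes the summed FPKM was 76.0 and 60.3, a scaled ratio of 0.779 (0.726 to 0.835), and the median was −0.52.

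From squalene onward the sum did not differ beyond counting error, at 85.6 and 88.7, a scaled ratio of 1.02 (0.967 to 1.07) over 9 genes. Fdft1, the squalene synthase, had 5.77 and 5.87. Sqle, the squalene epoxidase, had 7.06 and 8.84, a log2 difference of 0.29 (0.08 to 0.52). Lss, which closes the rings to lanosterol, had 4.59 and 3.41, a log2 difference of −0.44 (−0.70 to −0.21).

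The enzymes that trim lanosterol varied as much. Cyp51, the lanosterol 14α-demethylase, had 14.4 and 13.3, with an interval (−0.31 to 0.03) that held no change. Msmo1, the C4 methyl oxidase, was the highest of the sterol arm in αSMACreER;Foxf1-/-, with 27.9 and 35.0 and a log2 fold change of 0.30 (0.17 to 0.44). Nsdhl, which works with it at C4, had 4.28 and 3.76, with an interval (−0.67 to 0.24) that held no change.

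Hsd17b7 (ENSMUSG00000026675, chr1:169949535-169969241, minus strand), the 3-ketosteroid reductase that completes C4 demethylation, had 0.712 in Foxf1 fl/fl and 1.80 in αSMACreER;Foxf1-/-. It was 2.30-fold higher, the highest value among the 35 members in these libraries. Its log2 fold change was 1.20 (0.71 to 1.95) on only about 31 and 90 reads. Hsd17b7 passed the filter only through its value in αSMACreER;Foxf1-/-, so its rank is partly set by that filter. Sc5d and Dhcr7, which act near the end of the pathway, had 12.5 and 9.60, and 8.38 and 7.07. For Sc5d the log2 fold change was −0.41 (−0.59 to −0.24), and for Dhcr7 it was −0.27 with an interval (−0.55 to 0.01) that held no change.

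**Figure D2:**
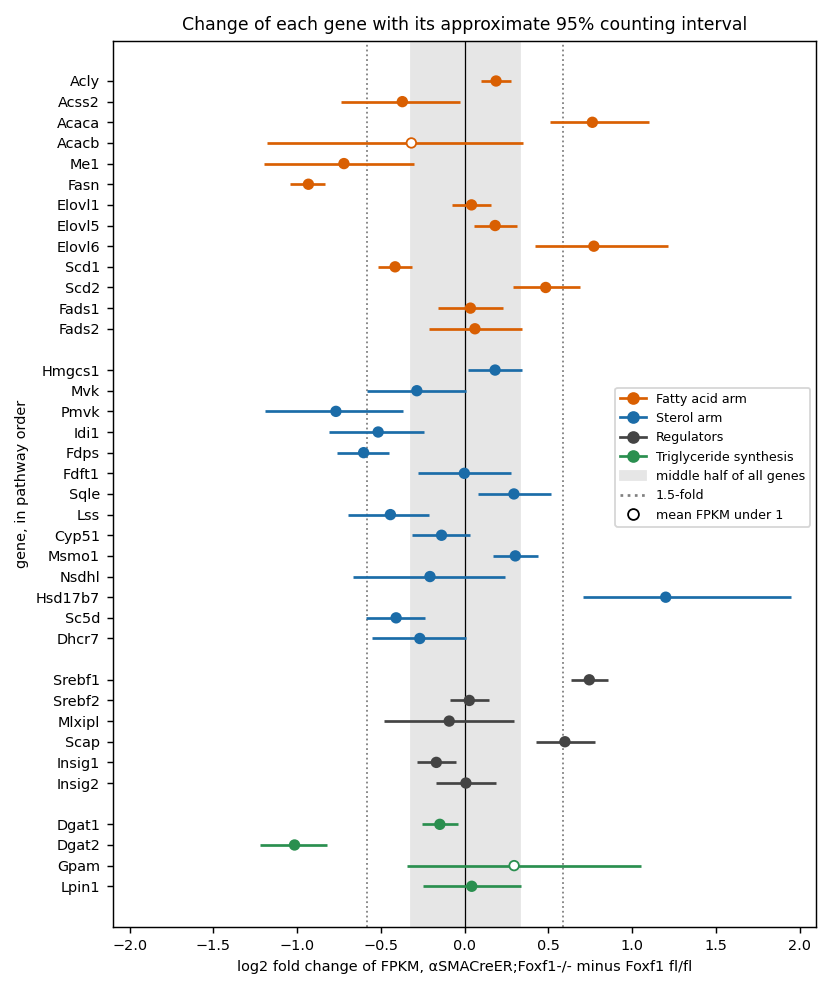
Log2 fold change (αSMACreER;Foxf1-/- minus Foxf1 fl/fl) of each of the 37 genes in pathway order, with lines for approximate 95% counting intervals, dotted lines at 1.5-fold and a grey band from the lower to the upper quartile of all 12692 genes (−0.32 to 0.33). The points lie on both sides of 0 in each arm, from Dgat2 at −1.02 to Hsd17b7 at 1.20, and open points are genes under the filter.

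Among the regulators, Srebf1 and Scap were higher and the other 4 differed by less than 1.5-fold. Srebf1 (ENSMUSG00000020538, chr11:60199089-60222581, minus strand), which encodes the SREBP1 factors that mainly drive fatty acid genes, had 24.6 in Foxf1 fl/fl and 42.1 in αSMACreER;Foxf1-/-. It was 1.68-fold higher, a log2 fold change of 0.74 (0.64 to 0.86). Srebf2, whose product mainly drives sterol genes, had 22.3 and 23.2, a log2 difference of 0.03 (−0.09 to 0.15). The ratio of Srebf1 to Srebf2 was 1.10 and 1.81, a log2 difference of 0.72 (0.56 to 0.88).

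Scap (chr9:110333288-110384950, plus strand), the escort of both factors, had 10.4 and 16.1 and was 1.51-fold higher, a log2 fold change of 0.60 (0.43 to 0.78). Insig1 and Insig2, which retain SCAP, had 46.7 and 42.3, and 19.1 and 19.6. For Insig1, itself a classical SREBP target, the log2 fold change was −0.17 (−0.29 to −0.05), and for Insig2 it was 0.01, with an interval that held no change. Mlxipl, which encodes the carbohydrate-responsive factor ChREBP, had 3.23 and 3.08, also with an interval that held no change.

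Promoters of 29 members were found in RefSeq (GRCm38.p6), and the 250 bases before each annotated start, up to 3 per member, were searched on both strands for the SREBP-binding sterol regulatory element written as TCACNCCAC. It was present for 2 members, Hmgcs1 and Mlxipl, and for 1.22% of 27025 genes. The windows around both matches, the only ones among the members, are shown with the element in capitals.

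Hmgcs1, chr13:119690174-119690262, plus strand: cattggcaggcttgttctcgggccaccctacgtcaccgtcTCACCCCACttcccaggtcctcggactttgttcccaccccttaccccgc

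Mlxipl, chr5:135106715-135106803, plus strand: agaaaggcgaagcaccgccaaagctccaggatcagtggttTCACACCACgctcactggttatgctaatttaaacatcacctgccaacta

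The element starts 137 bases before a RefSeq start of Hmgcs1 and 136 bases before one of Mlxipl. The Mlxipl window lies inside the gene, whose annotated start is at position 135089890, so it belongs to an internal alternative start. The log2 fold changes of these genes were 0.18 and −0.09. CCAAT, the core of the NF-Y site, was searched after the values were seen, and 23 of the 29 members held it (79.3%, against 37.5% of all genes and 39.5% of protein-coding genes), among them all 11 sterol arm genes found and 6 of 10 fatty acid arm genes. The E-box CACGTG was held by 7 members (24.1%, against 6.86% of all genes and 7.61% of protein-coding genes). The GC box GGGCGG, also searched, was held by 22 members (75.9%, against 35.4% of all genes and 45.8% of protein-coding genes). A gene was counted if any of its windows matched, which favours genes with more annotated starts. A match is a description of the sequence and does not show binding.

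In triglyceride synthesis, the acyltransferases of the last step parted. Dgat1 was the most abundant of all members, with 84.3 and 77.5, a log2 fold change of −0.15 (−0.25 to −0.04). Dgat2 (ENSMUSG00000030747, chr7:99153658-99182719, minus strand), the form tied to newly made fatty acids, had 27.96 and 14.04. It was 2.02-fold lower, the lowest value among the 35 members in these libraries, with a log2 fold change of −1.02 (−1.22 to −0.82). The ratio of Dgat1 to Dgat2 was 3.02 and 5.52, a log2 difference of 0.87 (0.65 to 1.09).

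Gpam, the mitochondrial acyltransferase that starts glycerolipid synthesis, had 0.524 and 0.678, under the filter. Lpin1, a phosphatidate phosphatase, had 3.38 and 3.55, with an interval that held no change. The gene pairs compared as ratios here were chosen after their values were seen, and those values are given as a description.

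Over all genes, longer transcripts tended to be higher in αSMACreER;Foxf1-/- and shorter ones lower, and the members were read against that trend. In 20 groups of genes by longest annotated transcript, the median log2 fold change ran from −0.40 in transcripts of 553 to 983 bases to 0.49 in those of 7784 bases or more. Of the 5 higher members, all had a longest transcript of at least 4227 bases. With the median of its length group subtracted, Hsd17b7 had 1.002, while Srebf1 (0.56), Elovl6 (0.44), Scap (0.41) and Acaca (0.27) kept their sign and were no longer past 1.5-fold.

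Among the lower members, Fasn has a longest transcript of 10050 bases and had −1.42 after the same subtraction. Acaca, with 9513 bases, falls in the same length group, and the same median was subtracted from both genes. Dgat2 had −0.88 and Me1 −0.73, while Pmvk, which has the shortest of the members' longest transcripts at 1194 bases, had −0.42 and Fdps −0.582, both no longer past 1.5-fold. Lss (−0.81), Scd1 (−0.61) and Sc5d (−0.61) passed the threshold only on this scale. The members then numbered 1 higher and 6 lower of 35, against 9.99% and 11.1% of all genes on this scale, and the medians were 0.03 for the fatty acid arm and −0.20 for the sterol arm.

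**Figure D3:**
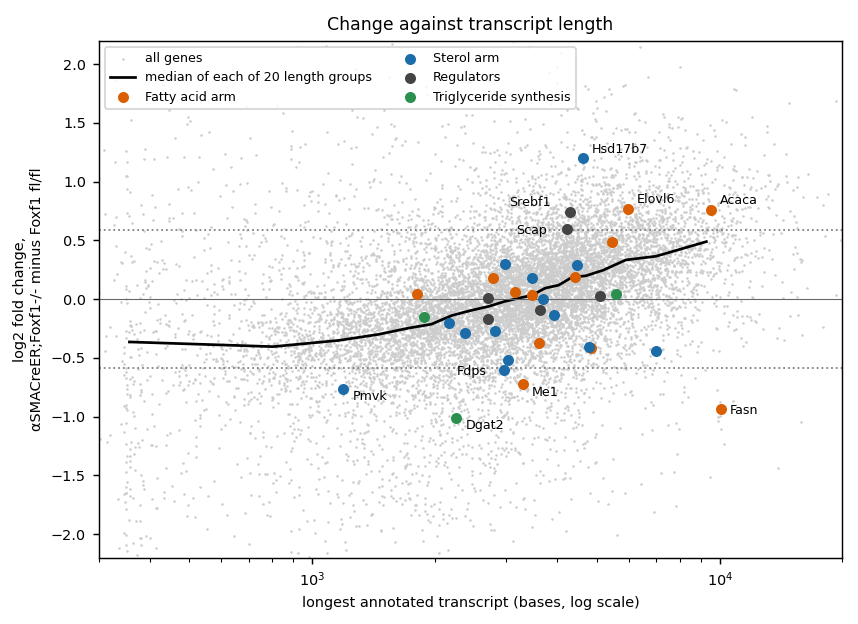
Log2 fold change against the longest annotated transcript (bases, log axis) for all 12692 genes (grey), the medians of 20 length groups (line) and the 35 members (coloured by arm), with dotted lines at 1.5-fold. The line climbs from −0.40 to 0.49, and Fasn and Acaca lie on opposite sides of it at nearly the same length; a few genes beyond the axis limits are not drawn.

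Some values are uncertain because reads could be shared with other genes. Stretches of 75 bases, the read length, were matched between the longest transcript of each member and all other annotated transcripts. No stretch was shared for 22 members, and over 20% were shared for 4. Acaca shared 47.4% with Gm5182, which was not analysed here, and Idi1 shared 20.7% with the processed pseudogene Gm13502, which was listed at 0 in both libraries. Fdft1 shared 19.3% with Ctsb, a lysosomal protease gene on the opposite strand that had 1329 and 1388, and without strand its reads cannot be told apart from those of Ctsb there. For Me1 23.1% was shared with annotated copies, whereas Fasn, Dgat2, Pmvk and Hsd17b7 shared none and Srebf1 0.828%.

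Other genes of the same pathways, from separate lists, were read beside the members. Over all genes 12.8% were higher and 13.2% lower by 1.5-fold. Of 14 further fatty acid genes that passed the filter, 0 were higher and 3 lower by 1.5-fold, with a median of −0.0044. Thrsp, the lipogenic Spot 14 gene, had 6.85 and 2.78 (log2 fold change −1.30), and Elovl2, which extends very long polyunsaturated chains, had 2.80 and 1.44 (−0.94).

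Of 9 further sterol genes 1 was higher and 2 were lower, with a median of −0.42. Ggps1, which diverts farnesyl diphosphate to geranylgeranyl diphosphate, had 3.69 and 5.89 (0.63), while Tm7sf2, a sterol reductase of the late pathway, had 8.44 and 4.89 (−0.80). Of 11 glycerolipid and droplet genes 3 were lower, with a median of −0.41. They were led by Cideb (14.3 and 5.80, −1.32), which promotes lipoprotein lipidation, and the droplet coat gene Plin5 (1.69 and 0.762, −1.08). Plin5 passed the filter only through its value in Foxf1 fl/fl.

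Fatty acid oxidation, the opposite process, was read in the same way, and its median lay below those of both synthesis arms, with no test of that difference. Of its 18 listed genes 1 was higher and 7 were lower, against 12.8% and 13.2% of all genes, and the median was −0.52. With the medians of transcript-length groups subtracted, 0 were higher and 4 lower, against 9.99% and 11.1% of all genes. The median was then −0.37. The summed FPKM of oxidation was 534 and 403, a scaled ratio of 0.742 (0.722 to 0.763). Ehhadh, of peroxisomal oxidation, had 27.5 and 9.01 (−1.63), and the nuclear receptor gene Ppara had 1.84 and 2.90 (0.61). The summed fatty acid arm had a scaled ratio of 0.986 (0.953 to 1.02) and the sterol arm 0.905 (0.868 to 0.944).

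The members' values were also read beside those of the hepatocyte markers. The 14 markers had log2 fold changes from −1.92 to −0.68, and the members' lowest, that of Dgat2, was −1.02. Of the 35 members 18 lay below 0 and 17 above it, and Dgat2, Fasn, Pmvk and Me1 lay within the range of the markers. The 10th percentile of all genes was −0.71, so values in this range were not particular to the members. The part of the hepatocyte markers in these values was not tested. The stellate cell and myofibroblast markers had a median of 0.42, the macrophage markers −0.34 and the endothelial markers 0.17. With the medians of transcript-length groups subtracted, these became 0.25, −0.12 and −0.01, and the hepatocyte markers went from −1.45 to −1.16. The neutrophil markers went from −1.15 to −0.77, with 2 rather than 3 of the 4 lower by 1.5-fold.

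**Figure D4:**
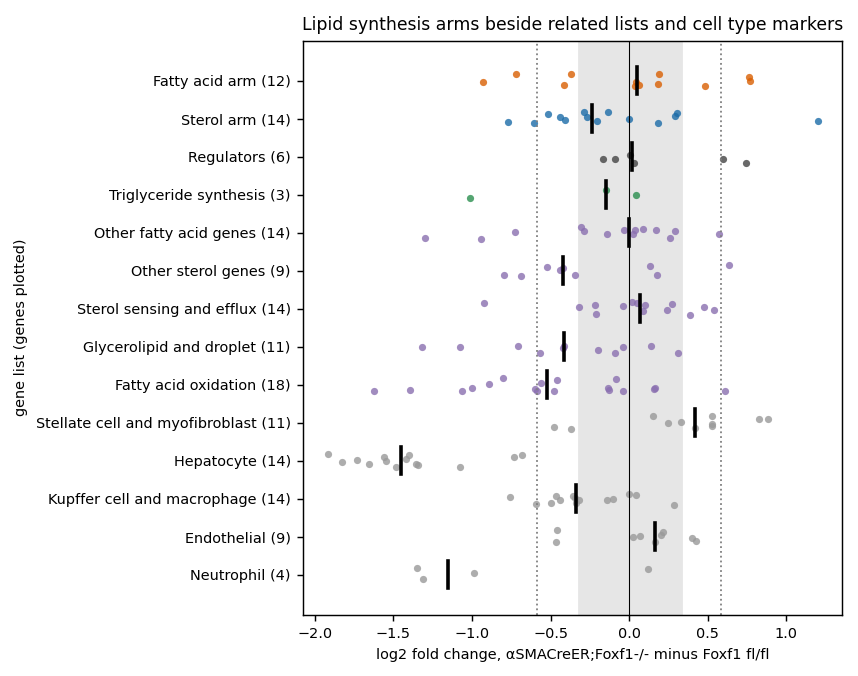
Log2 fold change of single genes (points, spread vertically for legibility) in the 4 member groups, 5 lists of related genes and 5 lists of cell type markers, with the median of each list (black bar), the quartile range of all genes (grey band) and dotted lines at 1.5-fold. The synthesis arms straddle 0, fatty acid oxidation has a median of −0.52, and all 14 hepatocyte markers lie below −0.58.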

How the data were processed

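Adherent liver cells of CCl4-treated mice were pooled within each genotype, and TruSeq RNA libraries were sequenced as single-end reads. Alignment by the authors used TopHat, and the deposited values are Cufflinks FPKM per Ensembl gene on mm10, without read counts. Versions are not given in the sources used here.

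Of 38320 entries, 36490 had a GENCODE M21 symbol. Where a symbol was repeated, its highest entry by mean FPKM was used, and 3 entries with a status other than OK were left out. Knockout values were divided by the median ratio (1.02) of genes at or above 1 FPKM in each library, a pseudocount of 0.1 was added before log2, and summaries were limited to genes whose mean FPKM reached 1.

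Read totals were derived from the steps between low FPKM values in 9003 genes with a single transcript of at least 500 bases, with an assumed fragment length of 200 bases. Of the low values, 44.2% and 48.3% were within 0.1 of whole reads, which makes these totals rough. Intervals are exact binomial (Clopper-Pearson) for genes and normal approximations for sums and ratios. Read numbers assume the longest transcript, and genes expressed from shorter transcripts have wider intervals than given.

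The members, gene lists and tests were chosen with earlier results of these data known. All 38 members were to be named, with the first 3 genes of each marker list (not all printed) and the 2 largest rises and falls at 1.5-fold of each list of related genes. Genes named beyond that rule (Lrat, Lep, Ctsb, Plin2, Abca1, Npc1, Npc2, Fabp4, Gm5182 and Gm13502) were chosen after their values were seen. Some genes that the rule names are not reported here. Scaling and fold changes were checked on simulated data. Alternatives changed the pseudocount, scaling, filter, threshold, handling of repeated symbols and adjustment for transcript length. Calculations used Python 3.11.15, with scipy 1.17.1, pandas 2.3.3 and numpy 2.4.6, and plots used matplotlib 3.10.9.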

Additional observations from a re-analysis of the deposited data

How the results depend on the processing

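No paired analysis was possible because there was only a single library of either genotype. Against 5 members at least 1.5-fold higher, 2 passed with a pseudocount of 1, 2 with a mean FPKM of at least 5, 1 at 2-fold and 1 with the medians of transcript-length groups subtracted. Acaca, Elovl6 and Scap were lost with a pseudocount of 1, and these and Srebf1 with length groups. Against 5 lower, 3 passed with a pseudocount of 1 (without Fdps and Me1), 2 with an equal FPKM sum (Fasn and Dgat2) and 1 at 2-fold. Over all genes, 12.8% were higher and 13.2% lower, and these shares became 8.53% and 10.7% with a pseudocount of 1, 8.08% and 11.1% with the filter at a mean FPKM of 5, 4.35% and 6.21% at 2-fold, 21.2% and 8.90% with an equal FPKM sum, and 9.99% and 11.1% with length groups. An equal FPKM sum moved the summed ratio of the fatty acid arm from 0.986 to 1.13 and that of the sterol arm from 0.905 to 1.03. Without Fasn the fatty acid arm had a ratio of 1.03 and without Scd1 it also had 1.03. The medians of both arms kept their sign in all alternatives run, but not their size. With an equal FPKM sum the sterol arm median was −0.05, close to no change, and the fatty acid arm median was 0.24. The difference between them ranged from −0.32 with a mean FPKM of at least 5 to −0.23 with length groups subtracted. Scaling moves both medians by nearly the same amount and no member had a repeated entry, so these alternatives could hardly change that difference. No member past 1.5-fold changed direction, but the alternatives run could not have reversed one, so this is no check of direction. The medians of the length groups reached at most 0.49, which is less than 1.5-fold on the log2 scale. An equal FPKM sum, the largest rescaling, moved the median of all genes only to 0.20. The pseudocount, filter and threshold leave the sign of a fold change as it is. Among the other members, 5 changed sign with an equal FPKM sum. The cause of these changes was not tested beyond the construction of each alternative. Among the genes past the threshold, Hsd17b7, Me1, Pmvk and Elovl6 rested on the fewest reads, with 31 and 90, 105 and 73, 125 and 86, and 80 and 165, and had the widest intervals.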

Other observations

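The most abundant gene of the related lists was Plin2, singled out after its values were seen, which encodes the coat protein of lipid droplets in most cells. It had an FPKM of 765 in Foxf1 fl/fl and 859 in αSMACreER;Foxf1-/-. The log2 difference was 0.14, with counting error from 0.11 to 0.17.

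Genes of sterol sensing and efflux had a median FPKM of 26.6 and 30.3, against 8.83 and 7.64 in the sterol arm. Of 14 such genes 0 were higher and 1 was lower by 1.5-fold, against 12.8% and 13.2% of all genes. The median log2 fold change was 0.07. Cyp27a1, the sterol 27-hydroxylase, was the lower gene, with 25.8 and 13.8 (−0.93). The cholesterol exporter gene Abca1, singled out after its values were seen, had 24.5 and 34.8 (0.48), and the lysosomal cholesterol transporter gene Npc1, likewise singled out, had 27.4 and 40.5 (0.54). After the medians of transcript-length groups were subtracted these became −0.01 and 0.20. The secreted partner of Npc1, Npc2, also chosen after its values were seen, had 344 and 302 (−0.21).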
